A study of Mus musculus with 39 samples.

Results

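Binding of the glucocorticoid receptor (GR) was set against binding of the estrogen receptor (ER) in 7438 mouse mammary cells that carry Afos and had been given both hormones. The comparison rests on 4 ChIP-seq samples of the 39 in the series, chosen by their labels: 2 GR libraries and 2 ER libraries, each with a deposited list of called sites. All 4 come from cells that express GR fused to GFP, ER fused to Cherry and Afos from tetracycline-regulated promoters; tetracycline was withdrawn 24 h before hormone. Dexamethasone (Dex, 100 nM) and estradiol (E2, 100 nM) were given together for 30 min. The labels number the replicates of each receptor 1 and 2 and do not say whether these were separate cultures, whether GR and ER were taken from the same chromatin, or whether the line is a clone. Each receptor was precipitated with its own antibody cocktail, in libraries of its own. A shared region is therefore one in which both receptors were called, and nothing shows that they sat on the same DNA molecule.

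GR and ER are nuclear receptors that enter the genome when a steroid binds them. GR binds palindromic glucocorticoid response elements and ER binds estrogen response elements, and both also occupy DNA through chromatin opened by other factors, among them AP-1 (dimers of Fos and Jun proteins). A-Fos is an engineered Fos protein that blocks DNA binding by AP-1. The labels use only the name Afos and do not say what it is. Dex activates GR and E2 activates ER.

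The GR lists held 14160 and 10309 sites and the ER lists 5905 and 2564 (replicates 1 and 2). The mean was 12234.5 ± 2723 for GR and 4234.5 ± 2362 for ER (SD, n = 2), a ratio of 2.89, with 2.40 in replicate 1 and 4.02 in replicate 2. Both GR lists were longer than both ER lists; a two-sided exact permutation test over the 4 lists gave p = 0.33, the smallest that 2 lists a group allow. Each site carries a highest tag density, MaxD, whose scaling is not stated, so a site is described here by its rank within its own list (percentile 100 for the strongest). MaxD had a median of 15.0 and 15.4 in the GR lists and of 14.8 and 11.2 in the ER lists. It reached 653 and 434 for GR, and 369 and 124 for ER. ER replicate 2 was thus the shortest list and the one with the lowest MaxD. Sequencing depth is unknown, because the lists give no read totals.

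Most ER sites lay on GR sites, and most GR sites lay away from ER. In replicate 1, 4512 of 5905 ER sites overlapped a GR site by at least 1 bp (76.4%, exact binomial 95% interval 75.3 to 77.5%). In replicate 2, 1776 of 2564 did (69.3%, 67.4 to 71.0%). Of the GR sites, 4487 of 14160 overlapped ER in replicate 1 (31.7%, 30.9 to 32.5%) and 1768 of 10309 in replicate 2 (17.2%, 16.4 to 17.9%). Intervals cover counting error only. The overlap was almost always of 1 site with 1 site: 36 GR sites of replicate 1 and 11 of replicate 2 held more than 1 ER site. Nearly the same overlaps are therefore counted from each side, and the mean difference of 48.4 percentage points between the ER and GR shares restates the list lengths and is no separate result.

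The overlap was also counted at equal list length. When each list was reduced to its 2564 sites of highest MaxD, the ER share fell to 40.6% and 29.3% in replicates 1 and 2, and the GR share was 40.2% and 28.9%. Both shares then have the same denominator and nearly the same numerator, so their near equality follows from the counting. At equal numbers most sites of either list lay off the retained sites of the other receptor. ER replicate 2 holds 2564 sites and was not itself reduced. Against the full GR list of replicate 2, 69.3% of these same ER sites were shared.

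Overlap rose with site strength for both receptors. In the strongest decile (10% of the list) of ER sites by MaxD, 586 of 591 lay on GR in replicate 1 (99.2%) and 249 of 257 in replicate 2 (96.9%). In the weakest decile the share was 60.8% and 45.7%. The top 100 ER sites were all on GR sites in each replicate. For GR the strongest decile was on ER in 913 of 1416 sites in replicate 1 (64.5%) and in 391 of 1031 in replicate 2 (37.9%). The weakest decile was at 17.7% and 11.7%. Among the 50 strongest GR sites, 47 held ER in replicate 1 and 34 in replicate 2. ER deciles were set here against the longer GR lists, so the levels of both receptors are not compared. With 2564 sites in each list, the strongest ER decile was shared at 92.6% and 73.2% and the weakest at 21.1% and 13.3%. For GR these were 68.5% and 52.5%, and 27.0% and 18.4%.

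**Figure D1:**
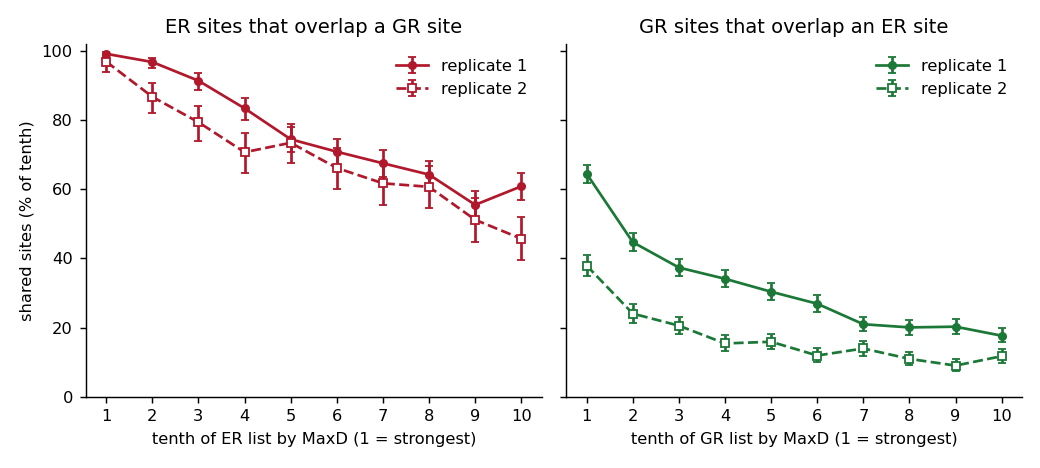
Share of sites that overlap a site of the other receptor in the same-numbered list (y axis, % of the decile) by decile of MaxD rank (x axis, 1 is the strongest), for ER sites (left) and GR sites (right). Lines are replicates and bars are exact binomial 95% intervals; the share is highest in the strongest decile of every list, at 99.2% and 96.9% for ER and 64.5% and 37.9% for GR.

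The fall with rank was steady but not strict. From the strongest decile to the weakest the share dropped at 8 of 9 steps in GR replicate 1 and in both ER lists, and at 6 of 9 in GR replicate 2. The strongest and the weakest decile differed by 38.3 and 51.2 percentage points for ER, and by 46.8 and 26.2 for GR. As a ratio, the strongest decile was shared 3.65 and 3.23 times as often as the weakest for GR, and 1.63 and 2.12 times as often for ER. The upper 5 deciles held 66.6% and 66.4% of the shared GR sites, and 58.3% and 58.8% of the shared ER sites.

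Whether an ER site counted as free of GR depended on the GR list it was set against. Of the 788 ER sites of replicate 2 without GR in the same-numbered list, 484 (61.4%) lay on a site of GR replicate 1. Of the 1393 such ER sites of replicate 1, only 19 (1.36%) lay on a site of GR replicate 2. Set against the other-numbered list, 87.4% of the ER sites of replicate 2 and 52.0% of those of replicate 1 lay on GR. GR replicate 1 therefore covered more of both ER lists than GR replicate 2 did. Of the GR sites without ER in the same-numbered list, 1347 of replicate 2 (15.8%) and 51 of replicate 1 (0.527%) lay on a site of the other ER list.

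Merging the 4 lists gave 16789 regions, of which 1710 (10.2%) were called in all 4, 6016 (35.8%) in both GR lists and no ER list, and 198 (1.18%) in both ER lists and no GR list. A further 463 regions were called in both ER lists and in GR replicate 1 but not in GR replicate 2, and 3 in both ER lists and in GR replicate 2 alone. A single list of each receptor called 986 regions in GR 1 and ER 1, 11 in GR 2 and ER 2, 14 in GR 1 and ER 2, and 12 in GR 2 and ER 1. Of the 463 regions, 426 (92.0%) were also ER sites in cells given E2 alone, and 3 were GR sites in cells given Dex alone. Their median GR rank in replicate 1 was percentile 39.9. The list of GR with E2 alone held 490 sites in replicate 1 and 146 in replicate 2, and 82 and 7 of the 463 regions were in it; the part this plays in the result was not tested.

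Where both receptors were called, their centres almost coincided. The median distance between the middle of a GR site and the middle of the ER site was 26.0 bp over 4479 pairs in replicate 1 and 32.0 bp over 1764 pairs in replicate 2. Within 100 bp lay 92.2% and 88.0% of the pairs. The signed median distance was -1.5 and -1 bp, so ER centres lay about as often to the left of GR centres as to the right. These are middles of called intervals, not summits.

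The distance was close to that between replicates of one receptor. At the 1658 regions with exactly 1 site in each of the 4 lists, the median was 20.5 bp between the GR replicates and 23.0 bp between the ER replicates. Between GR and ER it was 22.0 bp in replicate 1, between those values, and 31.0 bp in replicate 2, above both. Replicates of one receptor are other-numbered lists. Between GR and ER such lists gave 28.3 bp (GR 1 with ER 2) and 28.0 bp (GR 2 with ER 1), also above both. The upper end was longer between receptors: the 95th percentile was 127 and 163 bp, against 81.2 bp for GR and 92.1 bp for ER between replicates.

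**Figure D2:**
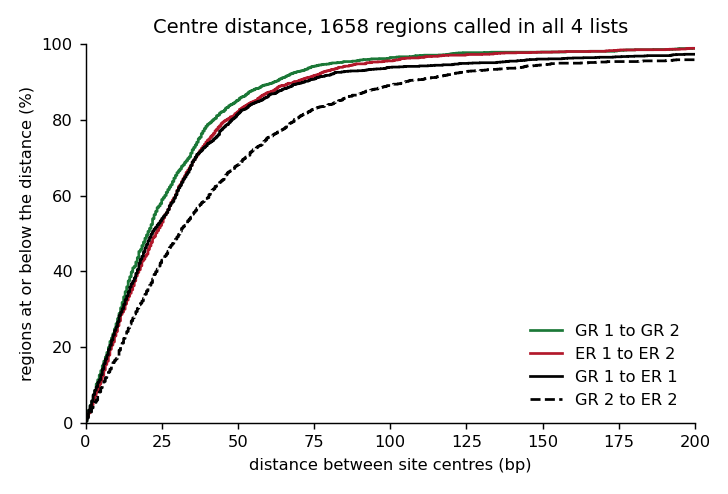
Cumulative share of the 1658 regions with 1 site in each of the 4 lists (y axis, %) by distance between site centres (x axis, bp). The curve of GR 1 against ER 1 runs with those between replicates of one receptor (medians 22.0, 20.5 and 23.0 bp), and GR 2 against ER 2 lies to the right of them (31.0 bp).

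Centres lay closer at strong ER sites. In the strongest decile of ER sites the median distance was 19.5 bp in replicate 1 and 26.3 bp in replicate 2, and in the weakest decile 42.3 and 55.5 bp. By GR rank the course was not steady: the median was 27.0 and 39.5 bp in the strongest decile, 22.0 and 23.3 bp in decile 4, and 37.5 and 43.5 bp in the weakest. Of the one-to-one pairs, the ER interval lay wholly inside the GR interval in 53.0% and 57.3%, and the GR interval inside the ER interval in 21.0% and 17.8%.

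The ranks of both receptors at shared sites were only loosely related. Spearman's rho of the MaxD ranks was 0.478 in replicate 1 (Pearson's r of the percentiles 0.469, n = 4479 pairs) and 0.364 in replicate 2 (0.376, n = 1764). Between replicates of one receptor rho was 0.797 for GR (n = 9087) and 0.781 for ER (n = 2384). At the 1658 regions in all 4 lists the same held, with rho of 0.488 and 0.376 between receptors, 0.914 between the GR lists and 0.817 between the ER lists. Sites of one list share a library, its depth and local chromatin, so these values describe the lists and carry no p. The mean rho of both replicates, 0.421, was 0.187 when each list was reduced to its 2564 strongest sites.

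The strongest shared ER sites tended to be strong GR sites. The strongest decile of all ER sites held 582 shared pairs in replicate 1 and 246 in replicate 2. The GR site also stood in its strongest decile at 338 (58.1%) and 118 (48.0%) of these pairs. It stood in the lower 5 deciles at 1.55% and 4.07%. The same 338 and 118 pairs were 37.1% of 912 and 30.3% of 390 pairs in the strongest GR decile, which holds more sites. In that GR decile the ER site was in the lower 5 deciles at 20.9% and 25.1% of pairs. Deciles of lists of unequal length hold different numbers of sites, so the shares from each side are not compared. The median GR rank fell from percentile 92.4 and 89.3 at the strongest decile of ER to 35.6 and 32.8 at the weakest.

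Which receptor ranked higher was similar in both replicates. At the 1658 regions the difference of ER rank minus GR rank in replicate 1 correlated with that in replicate 2 at rho = 0.762 (r = 0.726), and its sign was the same in 82.2%. ER ranked higher in both replicates at 662 regions and GR in both at 701, with 295 mixed. Ranks are percentiles within lists of unequal length, so the sign and these counts depend on list length. They do not compare amounts of binding. Over the 1710 regions called in all 4 lists the median percentile was 82.9 and 59.6 for ER, and 83.9 and 67.9 for GR.

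That difference moved with binding under single hormones, read from other libraries of the same cells. The GR lists with Dex alone held 8873 and 5136 sites and the ER lists with E2 alone 6046 and 4687, against 95 and 315 GR sites and 35 and 49 ER sites in untreated cells. The regions were split into quintiles by ER rank minus GR rank, separately in each replicate. In the quintile with the highest relative GR rank, the GR list with Dex alone held 78.9% of the regions in replicate 1 (74.1 to 83.1%) and 76.1% in replicate 2 (71.2 to 80.6%). In the quintile with the highest relative ER rank it held 3.01% and 0.301%. The ER list with E2 alone ran the other way, from 21.8% and 23.6% to 97.6% and 92.5%. GR with Dex and ER with E2 thus moved in opposite directions over the quintiles in each replicate. The quintiles are formed from the GR and ER ranks themselves and are not matched for either rank. The GR lists with Dex alone were also shorter than the GR lists with both hormones. The part of rank and list length in these shares was not tested. The GR list with E2 alone was higher at the ER end. It held 1.51% and 0% of the regions in the quintile of highest relative GR rank. In that of highest relative ER rank it held 29.8% and 8.73%.

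**Figure D3:**
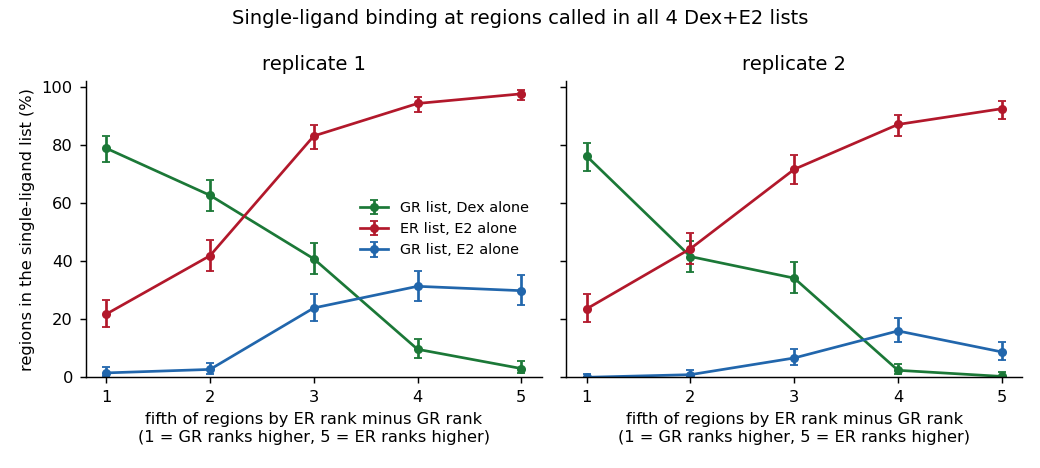
Share of regions present in the same-numbered list of cells given Dex or E2 alone (y axis, %), by quintile of ER rank minus GR rank with both hormones (x axis), for the 1658 regions with 1 site in each of the 4 Dex+E2 lists. Bars are exact binomial 95% intervals; GR with Dex falls from 78.9% to 3.01% in replicate 1 while ER with E2 rises from 21.8% to 97.6%, and GR with E2 reaches 31.3% in replicate 1.

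Among all 1710 regions called in the 4 lists, 857 (50.1%) were ER sites with E2 and in neither GR list with Dex, 360 (21.1%) were GR sites with Dex and in neither ER list with E2, 327 (19.1%) were both and 166 (9.71%) were neither. By contrast 88.5% of the 6016 GR regions without ER were GR sites with Dex (87.6 to 89.3%) and 1.45% were ER sites with E2. Of the 198 ER regions without GR, 96.5% were ER sites with E2 and 0.505% GR sites with Dex. The share of regions called in a GR Dex list depends on the list: for GR regions without ER it was 87.8% in replicate 1 and 61.7% in replicate 2. GR sites with E2 alone were present at 18.2% (replicate 1) and 6.43% (replicate 2) of the regions called in all 4 lists, and at 1 region and none of the 6016 without ER.

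Within such a class the ranks of both receptors were more closely related than over all shared regions. Where ER was present with E2 and GR absent with Dex (843 regions), rho was 0.750 in replicate 1 and 0.649 in replicate 2. Where both were present (302 regions) it was 0.727 and 0.583, and where neither was (166 regions) 0.802 and 0.583. Where GR was present with Dex and ER absent with E2 (347 regions) it was lowest, at 0.543 and 0.392. All 8 values lay above the pooled 0.488 and 0.376 of their replicate. In the ER class ER ranked higher than GR at 725 and 641 of 843 regions, and in the GR class at 4 and 8 of 347. These counts also compare percentiles of lists of unequal length.

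**Figure D4:**
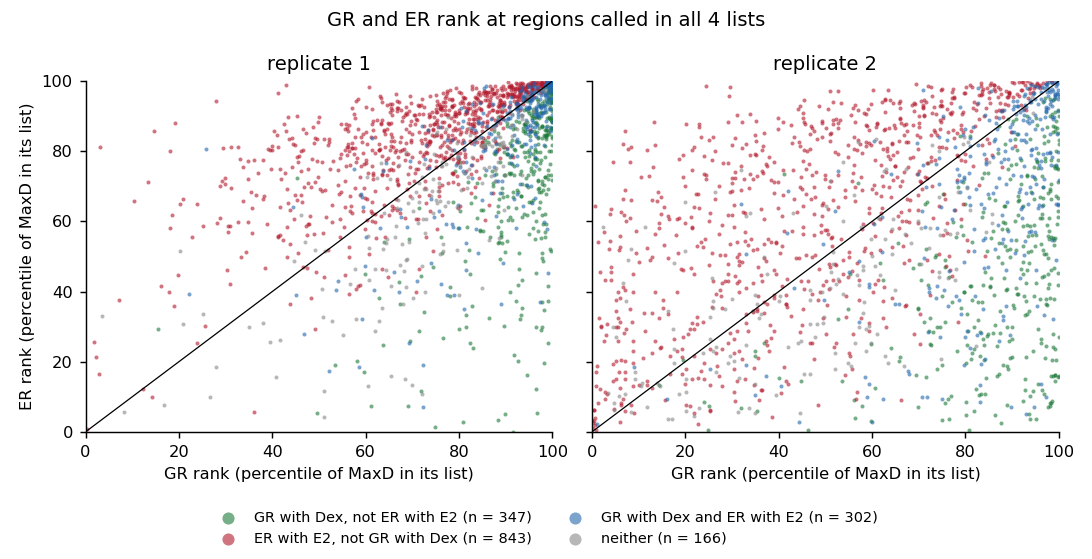
Rank of ER (y axis, percentile of MaxD in its list) against rank of GR (x axis, same scale) at the 1658 regions with 1 site in each of the 4 lists, replicate 1 left and replicate 2 right, coloured by presence in lists of cells given 1 hormone; the line marks equal rank. Regions of ER with E2 and not GR with Dex (843) lie mostly above the line, with rho 0.750 and 0.649. Regions of GR with Dex and not ER with E2 (347) lie almost all below it.

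Centre distance differed between these classes in the same direction in both replicates. Over all shared pairs, the median was 22.0 and 27.5 bp where ER was present with E2 alone and not GR with Dex (1904 and 895 pairs, same-numbered lists). It was 32.5 and 43.8 bp where GR was present with Dex and not ER with E2 (1059 and 362 pairs). Widths moved with it: the GR site had a median width of 612 and 601 bp in the former class and of 813 and 866 bp in the latter, while the ER site measured 649 and 593 bp against 562 and 507 bp. The part of width in the distance was not tested.

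Shared sites were wider than unshared ones in all 4 lists. ER sites with GR had a median width of 602 bp in replicate 1 and 562 bp in replicate 2, against 473 and 448 bp without GR (ratios 1.27 and 1.25). GR sites with ER measured 678 and 676 bp, against 573 and 578 bp without ER (ratios 1.18 and 1.17). Sites over 1000 bp made up 8.22% and 10.3% of shared GR sites and 1.54% and 2.55% of unshared ones. Over a whole list GR sites were wider, with a median of 602 and 592 bp against 567 and 523 bp for ER, a mean difference of 52.0 bp (exact permutation over lists, p = 0.33, the smallest possible). Cutting each list to its 2564 strongest sites left ER replicate 2 whole and did not match the receptors for strength. The lowest MaxD kept was 32.2 and 25.5 for GR, and 16.3 and 0.593 for ER. Medians were then 797 and 777 bp for GR and 670 and 523 bp for ER, a mean difference of 190.5 bp. Among sites found in both lists of their receptor it was 36 bp (exact permutation p = 1), and the lists of the receptors then no longer separated.

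Most of the difference between shared and unshared sites went with rank, since width rose with MaxD (rho between 0.793 and 0.855 in the 4 lists). Within deciles of MaxD the shared sites were still wider in each of 10 deciles of each list, by a mean ratio of 1.08 in both ER lists, and 1.05 and 1.04 in the GR lists. In the strongest ER decile the unshared median rests on only 5 sites in replicate 1 and 8 in replicate 2. Ranked by the z-score of the authors instead of MaxD, which is closer to width (rho between 0.926 and 0.941), the mean ratio was 1.01 for each receptor. The part of width itself in the chance of an overlap was not tested.

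**Figure D5:**
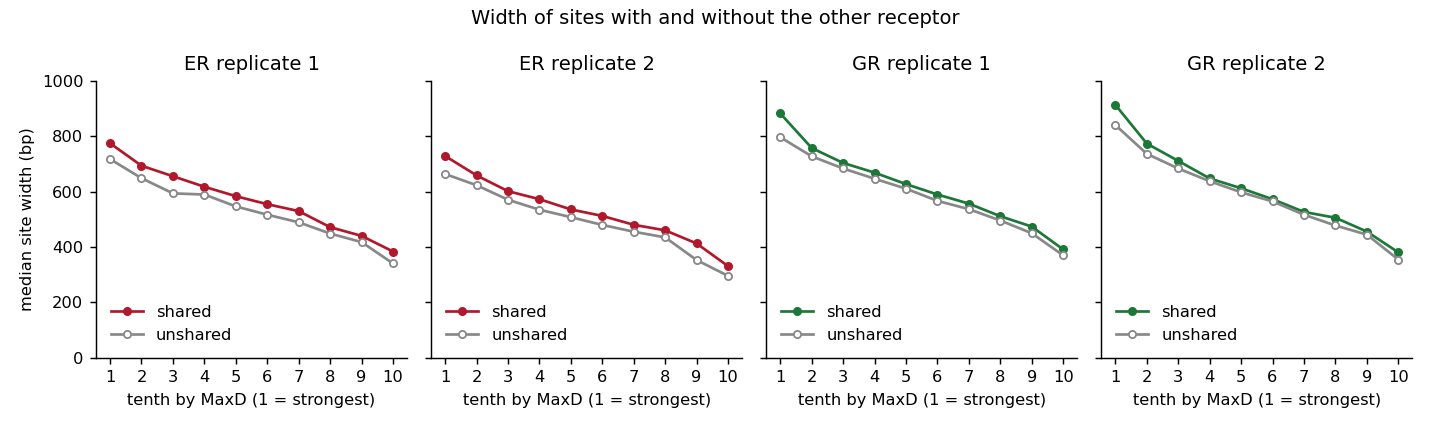
Median width of shared (filled) and unshared (open) sites in bp (y axis) by decile of MaxD rank (x axis, 1 is the strongest), 1 panel for each list. The shared sites lie above the unshared ones in every decile, with ratios from 1.05 to 1.17 for ER and from 1.01 to 1.11 for GR. The strongest ER decile has only 5 and 8 unshared sites (replicates 1 and 2).

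At shared sites the GR interval was the wider in 68.6% of pairs in replicate 1 and 72.6% in replicate 2. This differed by class: GR was wider at 99.1% and 97.8% of pairs present only as GR with Dex, and at 38.2% and 52.0% of those present only as ER with E2.

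The region that ranked highest over the 4 lists lay on chromosome 4 (mm9, 134658130 to 134659200). Its MaxD was 284 and 178 for GR and 224 and 88.6 for ER, and the centres were 5.50 and 42.5 bp apart. It was a GR site with Dex and an ER site with E2 in both lists of each. The next lay on chromosome 2 (118480664 to 118481475), with MaxD of 470 and 213 for GR and of 229 and 59.3 for ER, and on chromosome 5 (113711845 to 113712805), with 269 and 182 for GR and 162 and 67.1 for ER. Of the 5 highest-ranked regions, 4 were GR sites with Dex in both lists. All 5 were also GR sites with E2 alone in replicate 1, and all but that on chromosome 2 in replicate 2. Of all 1710 regions called in the 4 lists, 31.7% were in both GR lists with Dex. The GR lists with E2 alone held 18.2% and 6.43% of them. The region on chromosome 6 (147073248 to 147074254), the strongest ER site of both lists, was in no GR list with Dex. Genes and sequence at these positions are not given, because no annotation of mm9 was used here.

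The GR regions without ER had a highest MaxD of 253 and 227, below the 653 and 434 reached in regions called in all 4 lists. On chromosome 7 (117858882 to 117859826) MaxD was 238 and 227 for GR, and on chromosome 1 (159004923 to 159005775) it was 253 and 218, with no ER site in either list. All 5 regions of this class named by rank were GR sites with Dex in both lists and in no ER list with E2. Of all 6016 regions of the class, 61.0% were in both GR lists with Dex and 1.45% in an ER list with E2. For ER regions without GR the highest MaxD was 52.3 and 25.01, below the 369 and 124 reached in regions called in all 4 lists. By rank the first of them, on chromosome 3 (122025138 to 122025808), had a MaxD of 50.4 and 23.9 for ER, and the next, on chromosome 11 (74643726 to 74644483), had 52.3 and 23.5. All 5 of these were ER sites in both E2 lists and in no GR list with Dex. Of all 198 ER regions without GR, 91.4% were in both E2 lists and 0.505% in a GR list with Dex.

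Shared regions with unequal ranks show both ends. On chromosome 11 (5441945 to 5442744) ER stood at percentile 98.9 and 98.7 (MaxD 97.2 and 49.6) while GR stood at 42.9 and 24.4 (13.1 and 10.7), with centres 18.0 and 10.5 bp apart. On chromosome 7 (35591140 to 35591873) ER stood at 94.3 and 88.3 and GR at 27.8 and 13.2. On chromosome 17 (25347730 to 25348688) GR stood at 96.7 and 95.04 (MaxD 87.4 and 67.6) and ER at 5.52 and 3.71 (7.70 and 5.14). All 5 regions with the largest excess of ER rank were ER sites in both E2 lists and in no GR Dex list, and all 5 with the largest excess of GR rank were the reverse. Of all 1710 regions in the 4 lists, 50.1% were ER sites with E2 and not GR sites with Dex, either list counted. The reverse held for 21.1%.

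Shared sites were found on all 20 chromosomes of the lists. Per chromosome the share of ER sites on GR ran from 69.3% (chromosome 16) to 81.3% (chromosome 19) in replicate 1 and from 56.1% (chromosome X, 41 sites) to 77.5% (chromosome 12) in replicate 2. The share of GR sites on ER was lowest on chromosome X in both replicates, at 20.6% (16.2 to 25.5%) of 311 sites and 10.6% (6.78 to 15.6%) of 207, and highest on chromosome 11 in replicate 1 (37.1%) and chromosome 2 in replicate 2 (22.2%). Few unshared sites were near misses: a site of the other receptor lay within 500 bp of 2.66% and 2.79% of unshared ER sites and of 1.23% and 0.843% of unshared GR sites. Unshared sites were less often found again in the other list of their own receptor, at 14.8% against 48.3% of shared sites in ER replicate 1, 85.2% against 97.2% in ER replicate 2, 62.8% against 67.5% in GR replicate 1 and 86.3% against 99.2% in GR replicate 2. These shares are not matched for rank. In ER replicate 1 the median percentile was 29.6 for unshared and 58.6 for shared sites. Recovery there went from 99.2% in the strongest decile to 7.46% in the weakest. The part of rank was not tested.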

How the data were processed

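ChIP-seq sites of GR and ER in 7438 Afos cells given Dex and E2 were used from 4 deposited lists; the other 12 lists of 7438 Afos served as single-hormone and untreated readouts. Per the submitters' processing notes, the build was mm9 and CASAVA 1.8 was used; for the aligner, peak caller, control and threshold the sources used here name nothing. Per the file headers, each site has a deposited signal (highest and average tag density, scaling not stated) and a z-score, a score by the authors. Coordinates are printed as listed, whether counted from 0 or 1 is not stated. Read depth is unknown. Sites were shared when they overlapped by at least 1 bp with the same-numbered list; one-to-one pairs took the nearest centre. Ranks are percentiles within a list, and deciles follow MaxD. Shares carry exact Clopper-Pearson 95% intervals. A region in a single-hormone list overlapped a site of it; in classes, either list of 2 counts. The 3 measures over lists (number of sites, shared share, median width) were tested by two-sided exact permutation; no p is given for the share, which follows from the list lengths. Alternatives changed the overlap rule, the list length, the ranking, the replicate and the filter on weak sites. The measures were checked on simulated lists. In each of 5 classes the 5 sites of highest mean rank (or of largest rank difference in the weaker replicate) could be named. Members, rules and lists were chosen with earlier results of these data known. Python 3.11.15, NumPy 2.4.6, SciPy 1.17.1, pandas 2.3.3 and matplotlib 3.10.9 were used.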

Additional observations from a re-analysis of the deposited data

How the results depend on the processing

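Among results with a direction that could reverse, none reversed under any alternative tried. Centre distance and the shares in single-hormone lists have no such direction. Ranking by z-score or average density cannot change the shared share or the width ratio over a whole list. Leaving out a replicate gives the value of the other replicate alone. The exact permutation tests over the 4 lists cannot go below p = 0.33, so they say nothing on stability. With the same-numbered lists as a replicate block, an exact sign-flip test gave p = 0.5, its smallest, for the number of sites (ratio 2.89) and the median width (52.0 bp), and the share difference was 48.4 points with the block; the labels give no shared origin for a number, and at the 1658 regions the deviations of log2 MaxD of same-numbered GR and ER lists correlated at 0.365. The share difference restates the list lengths: with equal numbers of sites it was 0.429 points by construction. The median width difference rose to 190.5 bp with equal numbers, a cut that left ER replicate 2 whole. It was 36 bp (exact permutation p = 1) for sites in both lists of the receptor. The strongest minus the weakest decile for ER rose from 44.7 to 62.6 points with a reciprocal overlap of 50% and to 65.7 with equal numbers. The mean rank correlation of 0.421 moved to 0.526 with the reciprocal overlap, to 0.282 for sites at or above the median MaxD and to 0.187 with equal numbers. The width ratio of shared to unshared ER sites (1.26) was 1.31 with reciprocal overlap, 1.23 with centres within 150 bp, 1.13 at or above the median, 1.17 with equal numbers, 1.19 for sites in both ER lists and 1.33 with other-numbered lists. For GR (1.18) these were 1.15, 1.16, 1.12, 1.105 and 1.16. Within deciles the ER ratio (1.08) was 1.11, 1.06, 1.04, 1.02 and 1.06 in the same order, 1.01 by z-score, 1.09 by average density and 1.09 with other-numbered lists. The GR ratio (1.04) was 1.04 with centres within 150 bp, 1.03 at or above the median, 1.05 with equal numbers, 1.05 for sites in both lists, 1.01 by z-score and 1.04 with other-numbered lists. The cause of these moves was not tested. Regions found in both lists of the single hormone, an alternative added after the data were examined, gave 31.7% (GR with Dex) and 62.9% (ER with E2) of the regions in all 4 lists, 61.0% of GR regions without ER and 91.4% of ER regions without GR.

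Leaving out a replicate gave ratios of list length of 2.40 to 4.02. It gave share differences of 44.7 to 52.1 points, width differences of 35.0 to 69.0 bp, top minus bottom deciles of 38.3 to 51.2 points for ER and 26.2 to 46.8 for GR, centre distances of 26.0 to 32.0 bp and rank correlations of 0.364 to 0.478. Width ratios were 1.25 to 1.27 for ER and 1.17 to 1.18 for GR, and within deciles 1.08 to 1.08 and 1.04 to 1.05. The shares in single-hormone lists, whose replicate settings were added after the data were examined, ran from 31.9% to 40%, 64.2% to 68.0%, 61.7% to 87.8% and 92.4% to 95.5% in the order above. The rank correlations by class, all added, ran from 0.392 to 0.543 (GR with Dex), 0.649 to 0.750 (ER with E2), 0.583 to 0.727 (both) and 0.583 to 0.802 (neither). Leaving out sites of untreated lists moved no result beyond its spread. Depth is unknown, so a site missing from a list may lie below its threshold.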
